A study of Saccharomyces cerevisiae with 9 samples.

Results

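*HO* and 9 other genes grouped as haploid-specific, most of them of the pheromone pathway, were followed across 3 strains of *Saccharomyces cerevisiae*. The members were named by locus and matched exactly to the mRNA entries of the transcript table: *HO* (YDL227C), *NEJ1* (YLR265C), *RME1* (YGR044C), *GPA1* (YHR005C), *STE4* (YOR212W), *STE18* (YJR086W), *STE5* (YDR103W), *FUS3* (YBL016W), *FAR1* (YJL157C) and *STE12* (YHR084W). All 10 were present among the 6952 entries of that table, and all 10 passed the filter on low counts in each comparison of strains. *HO* was selected on its measured fall in *pab1Δpbp1Δ* cells, so its values are given as a description with no test. The question was whether the other 9 genes fell with it.

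A haploid yeast cell is of mating type a or α. In a diploid, the proteins a1 and α2, 1 from each mating type, form a repressor that binds paired sites upstream of haploid-specific genes and switches them off. Most of the genes described here build the pheromone pathway: a pheromone receptor releases the β and γ subunits of a G protein from its α subunit, a scaffold protein then assembles a kinase cascade, and the last kinase acts on a transcription factor and on an inhibitor of the cell cycle. *HO* encodes the endonuclease that starts mating-type switching by cutting the *MAT* locus, and it is transcribed late in the G1 phase of mother cells. Laboratory strains of the W303 background carry an *ho* allele that does not switch.

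RNA-Seq libraries of *pab1Δpbp1Δ*, *pbp1Δ* and WT cells were compared, 3 of each strain and 9 in all. Per the study's strain list, every strain is a *MATa* W303 haploid with mutant alleles of *ura3*, *leu2*, *his3*, *trp1*, *ade2* and *can1*. In *pbp1Δ* cells the *PBP1* coding sequence, which encodes a partner of the poly(A)-binding protein Pab1, is replaced by *URA3*. In *pab1Δpbp1Δ* cells *PAB1* is also replaced, by kanMX, and the control for this deletion is *pbp1Δ* because cells without Pab1 live only with a suppressor such as *pbp1Δ*. The replicates of each mutant are separate isolates, the *pab1Δpbp1Δ* isolates all derive from 1 *pbp1Δ* isolate, and the methods call the WT replicates technical. All cells grew in rich YEPD medium and were collected by filtration, and the methods give a longer doubling time for *pab1Δpbp1Δ* cells.

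Expected counts summed to between 77751826 and 89196615 in the *pab1Δpbp1Δ* libraries, between 75215943 and 100361368 in *pbp1Δ* and between 73062345 and 87763579 in WT. *PAB1* had 22.0 to 50.0 expected counts in *pab1Δpbp1Δ* libraries, against 108388 to 142056 in *pbp1Δ*. *PBP1* had 66 to 143 counts in the mutant libraries, against 22789 to 26638 in WT. The *pab1Δpbp1Δ* libraries were the most variable: log2 levels correlated across entries at 0.977 to 0.992 between its replicates, against 0.9977 to 0.9983 between those of *pbp1Δ* or of WT, and replicate 1 was the farther one. Levels are given as CPM, counts brought to a common library size with TMM factors over all 9 libraries, which serve to compare 1 gene across strains. A gene counted as changed at an adjusted p under 0.01 in edgeR's quasi-likelihood test over all entries of a comparison.

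The *HO* gene lies on the minus strand of chromosome IV, at 46271 to 48031 in the R64 genome. *HO* stood at 3.50, 7.61 and 6.27 CPM in the *pab1Δpbp1Δ* libraries (349, 733 and 610 counts), at 46.9, 52.9 and 50.8 CPM in *pbp1Δ* and at 79.5, 86.3 and 93.8 CPM in WT. No library of 1 strain reached into the range of another, and every *pab1Δpbp1Δ* library was far below the rest. The log2 fold change was -3.12 in *pab1Δpbp1Δ* against *pbp1Δ*, which is 0.115 of the level in *pbp1Δ*. In such bulk RNA, fewer cells that transcribe *HO* and less *HO* mRNA per cell cannot be told apart. Of 6573 entries in that comparison, 5 had a lower fold change, the deleted *PAB1* among them. For *pbp1Δ* against WT the log2 fold change of *HO* was -0.78, with 28 of 6425 entries lower, and in *pab1Δpbp1Δ* against WT it was -3.91, with 5 of 6558 lower. The deleted *PBP1* is among the lower entries of both comparisons with WT, and *PAB1* among those of the last.

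*HO* has a long regulatory region in which Swi5 acts far upstream and the factor SBF, made of Swi4 and Swi6, acts at many boxes nearer to the gene. A stretch of 110 bases of it (minus strand, chrIV:48392-48501) is shown because it holds both kinds of element that set *HO* apart as a haploid and G1 gene. Capitals mark 2 SBF boxes (CACGAAA) and, after them, 2 matches to the a1-α2 operator, searched as CATGT and ACATC with 8 bases of any kind between them, on both strands.

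*HO* promoter: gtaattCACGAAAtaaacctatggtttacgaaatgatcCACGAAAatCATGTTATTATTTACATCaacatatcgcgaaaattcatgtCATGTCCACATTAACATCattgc

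The 1800 bases before *HO* held 8 SBF boxes, at positions -860 to -249 from the start codon. No other gene of 5994 searched had more than 4, and 19.9% had at least 1. A Swi5 site (ACCAGC) stood at -1308, as in 49.5% of windows of that length. Both operators shown, at -423 and -383, lay within 500 bases of the start codon, where 9 of 6000 genes (0.15%) had such a match.

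Those 9 genes included *GPA1* and *NEJ1* among the members. Shortening the operator to ATGT and ACAT with the same gap added *RME1*, and 1.07% of genes had this shorter form. The 3 sites are printed because these genes share the operator with *HO* and moved in both directions. In *NEJ1* the match lies on the opposite strand, so the capitals show its reverse complement. All 3 genes are on minus strands, and sequences are given in the direction of the gene.

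*GPA1* (chrVIII:115247-115284): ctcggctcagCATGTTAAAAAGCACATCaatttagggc

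*NEJ1* (chrXII:675577-675614): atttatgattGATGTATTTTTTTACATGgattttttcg

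*RME1* (chrVII:584271-584306): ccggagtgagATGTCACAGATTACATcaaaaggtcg

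*STE4*, *STE18*, *STE5*, *FUS3*, *FAR1* and *STE12* had neither form in 500 bases, which says only that these letters are not there. A match is no proof of binding.

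**Figure D1:**
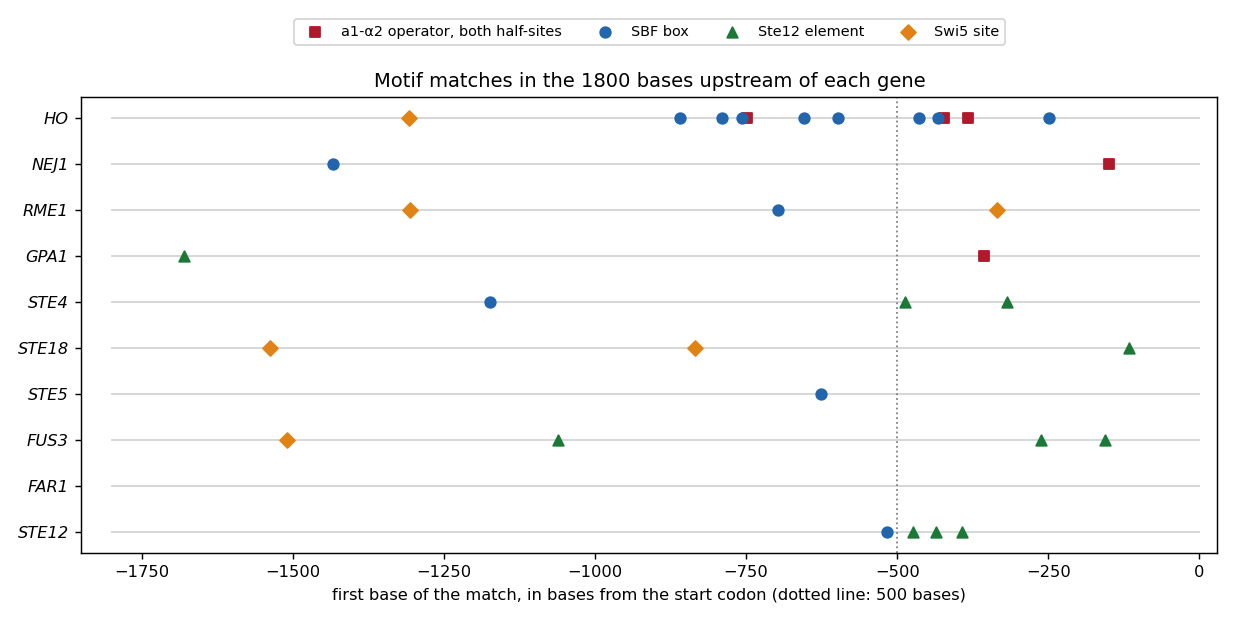
Matches to 4 motifs in the 1800 bases before the start codon of each gene, drawn at the distance of their first base in bases. *HO* carries 8 SBF boxes, and the full operator appears within 500 bases before *HO*, *NEJ1* and *GPA1* alone among the 10 genes; windows of this length can reach into neighboring genes.

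The mRNA of *HO* is also bound after its stop codon by Puf proteins, which recognize TGTA followed by TA at a set distance and recruit the deadenylase Ccr4-Not. The 28 bases at positions 5 to 32 after the stop codon (minus strand, chrIV:46239-46266) hold 2 matches to such a pattern on the sense strand, in capitals. A match here is no proof that a Puf protein binds there.

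*HO* after the stop codon: TGTATATTAgtttaaaaagtTGTATGTA

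The first has 3 bases between TGTA and TA, a form that 15.6% of genes had in 200 bases after the stop codon, and the other has 2, found in 23% of genes. Both forms together occurred in 209 of 6002 genes (3.48%). *FUS3* had the form with 2 bases, and *GPA1*, *FUS3* and *FAR1* had one with 4, found in 20.9% of genes.

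Of the 9 other members, 6 fell in *pab1Δpbp1Δ* against *pbp1Δ* (*FAR1*, *GPA1*, *RME1*, *STE4*, *STE12* and *FUS3*), 2 rose (*STE18* and *NEJ1*) and *STE5* did not pass the test. Over all 6573 entries, 16.7% were called lower and 18% higher. The median log2 fold change of the 9 genes was -0.64, beside 0.03 over all entries. For 8 of the 9 genes the *pab1Δpbp1Δ* libraries lay wholly outside the range of *pbp1Δ*, as they did for 64.7% of all entries. Leaving out *pab1Δpbp1Δ* replicate 1 again gave 8 calls, and leaving out its replicate 2 or 3 gave 6 or 7. With any single *pbp1Δ* library left out there were 5, namely *RME1*, *GPA1*, *STE4*, *STE18* and *FAR1*. With upper-quartile scaling it was 6, with 4 lower and 2 higher. Over all entries, leaving out *pab1Δpbp1Δ* replicate 1 gave 2038 calls higher and 1879 lower of 6631, beside 1185 and 1100 of 6573 with every library. Without a *pbp1Δ* library, all entries gave 436 to 511 calls higher and 424 to 534 lower.

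**Figure D2:**
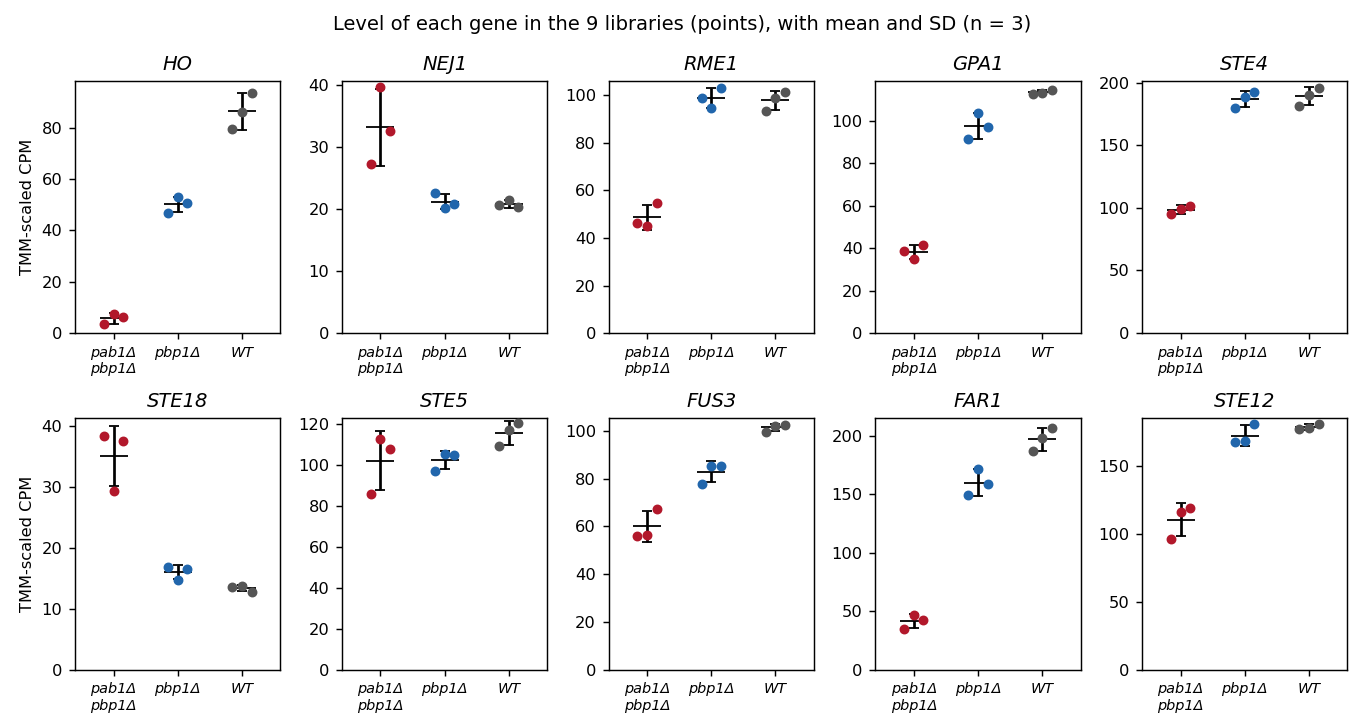
TMM-scaled CPM of the 10 genes in each library (points), with the mean and SD of each strain (n = 3), from *pab1Δpbp1Δ* at the left to WT at the right. *HO* falls to 5.79 ± 2.10 CPM in *pab1Δpbp1Δ*, *STE18* and *NEJ1* lie above both other strains, and the *STE5* libraries of *pab1Δpbp1Δ* and *pbp1Δ* overlap.

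The G protein of the pathway was split. *GPA1*, on the minus strand of chromosome VIII (113499 to 114917), encodes the α subunit that holds the other subunits inactive. Its level was 38.6, 34.7 and 41.3 CPM in *pab1Δpbp1Δ*, against 91.4, 103 and 96.9 CPM in *pbp1Δ*, while WT libraries had 113, 113 and 115 CPM. All *pab1Δpbp1Δ* libraries lay below all others, and *GPA1* fell with a log2 fold change of -1.35 ± 0.11 (SE, adjusted p = 0.000139).

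*STE4*, on the plus strand of chromosome XV (742910 to 744181), encodes the β subunit, which signals once freed. *STE4* stood at 95.3, 99.1 and 102 CPM in *pab1Δpbp1Δ*, against 180, 188 and 193 CPM in *pbp1Δ*, and at 182, 191 and 196 CPM in WT. The *pbp1Δ* and WT libraries overlapped and the *pab1Δpbp1Δ* libraries were well below them, with a log2 fold change of -0.92 ± 0.09 against *pbp1Δ* (adjusted p = 0.000262).

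*STE18*, on the plus strand of chromosome X (586068 to 586400), encodes the γ subunit that anchors Ste4 to the membrane, and it moved the other way. Levels of *STE18* were 38.3, 29.3 and 37.4 CPM in *pab1Δpbp1Δ*, against 16.8, 14.7 and 16.5 CPM in *pbp1Δ*, and 13.6, 13.8 and 12.8 CPM in WT. Each *pab1Δpbp1Δ* library was above each library of the other strains, and the log2 fold change against *pbp1Δ* was 1.13 ± 0.13 (adjusted p = 0.000495).

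The scaffold gene followed neither pattern, and the gene of its kinase fell by less than *GPA1* and *STE4*. *STE5*, on the plus strand of chromosome IV (658350 to 661103), encodes the scaffold that carries the kinases to the freed G protein. *STE5* had 85.6, 112 and 108 CPM in *pab1Δpbp1Δ*, against 97.1, 105 and 104 CPM in *pbp1Δ*, and 109, 117 and 120 CPM in WT. The *pab1Δpbp1Δ* libraries took in the whole range of *pbp1Δ* and overlapped WT, and the log2 fold change against *pbp1Δ* was -0.01 ± 0.12 (adjusted p = 0.973), with its sign changing between alternatives.

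*FUS3*, on the plus strand of chromosome II (192451 to 193512), encodes the MAP kinase at the end of the cascade. *FUS3* had 56.2, 56.5 and 67.3 CPM in *pab1Δpbp1Δ*, against 77.8, 85.3 and 85.5 CPM in *pbp1Δ*, and 99.6, 102 and 103 CPM in WT. The 3 strains formed separate steps, and the fall against *pbp1Δ* was small (log2 fold change -0.47 ± 0.11, adjusted p = 0.00814). It was not past the threshold with upper-quartile scaling (log2 fold change -0.28).

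Beyond the kinase, the pathway acts through *FAR1* and *STE12*. *FAR1*, on the minus strand of chromosome X (123836 to 126328), encodes the protein that blocks G1 cyclin kinase and guides growth toward a mate. It had the lowest fold change of the 9 genes, with 34.8, 47.2 and 42.8 CPM in *pab1Δpbp1Δ*, against 149, 172 and 159 CPM in *pbp1Δ*, and 187, 198 and 206 CPM in WT. No libraries of different strains overlapped, and the log2 fold change against *pbp1Δ* was -1.94 ± 0.14 (adjusted p = 8.03e-05).

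*STE12*, on the plus strand of chromosome VIII (274174 to 276240), encodes the transcription factor that Fus3 activates. *STE12* had 96.5, 117 and 119 CPM in *pab1Δpbp1Δ*, against 168, 169 and 182 CPM in *pbp1Δ*, and 178, 178 and 181 CPM in WT. The *pab1Δpbp1Δ* libraries were below all others (log2 fold change -0.64 ± 0.11 against *pbp1Δ*, adjusted p = 0.00232), while those of *pbp1Δ* and WT overlapped. With upper-quartile scaling *STE12* did not pass the threshold (log2 fold change -0.46).

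Ste12 binds the pheromone response element TGAAACA, which 12% of genes had on either strand within 500 bases of the start codon. *STE12* itself, *FUS3*, *STE4* and *STE18* had it, so the element is found before genes that fell and before 1 that rose. The element occurs 3 times before *STE12*, 2 times each before *FUS3* and *STE4* and 1 time before *STE18*. The sites of *STE12* and *FUS3* are shown as those of the factor itself and of the kinase that activates it. In *FUS3* site 1 the element lies on the opposite strand.

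*STE12* (chrVIII:273694-273793, plus strand): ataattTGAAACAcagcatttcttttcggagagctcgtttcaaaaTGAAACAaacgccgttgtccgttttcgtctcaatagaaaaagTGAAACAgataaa

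*FUS3* site 1 (chrII:192179-192205, plus strand): gttttagatcTGTTTCAccctggaact

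*FUS3* site 2 (chrII:192285-192311, plus strand): tacagggcatTGAAACAattgcagaaa

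Outside the pathway, *RME1* and *NEJ1* moved in opposite directions. *RME1*, on the minus strand of chromosome VII (582990 to 583892), encodes a repressor of meiosis that keeps haploids from sporulating. *RME1* had 46.2, 45.2 and 54.6 CPM in *pab1Δpbp1Δ*, against 99.0, 94.8 and 103 CPM in *pbp1Δ*, and 93.6, 98.8 and 101 CPM in WT. The *pab1Δpbp1Δ* libraries were below all others, while those of *pbp1Δ* and WT overlapped, and *RME1* fell to 0.492 of its level in *pbp1Δ* (log2 fold change -1.02 ± 0.11, adjusted p = 0.000338).

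*NEJ1*, on the minus strand of chromosome XII (674427 to 675455), encodes a haploid factor of DNA end joining. *NEJ1* had 27.3, 39.7 and 32.6 CPM in *pab1Δpbp1Δ*, against 22.5, 20.3 and 20.8 CPM in *pbp1Δ*, and 20.6, 21.5 and 20.4 CPM in WT. All *pab1Δpbp1Δ* libraries were above all others, but they spread widely (log2 fold change 0.65 ± 0.15 against *pbp1Δ*, adjusted p = 0.00726). Leaving out a single library ended this call in 5 of 6 cases, the exception being *pab1Δpbp1Δ* replicate 1.

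**Figure D3:**
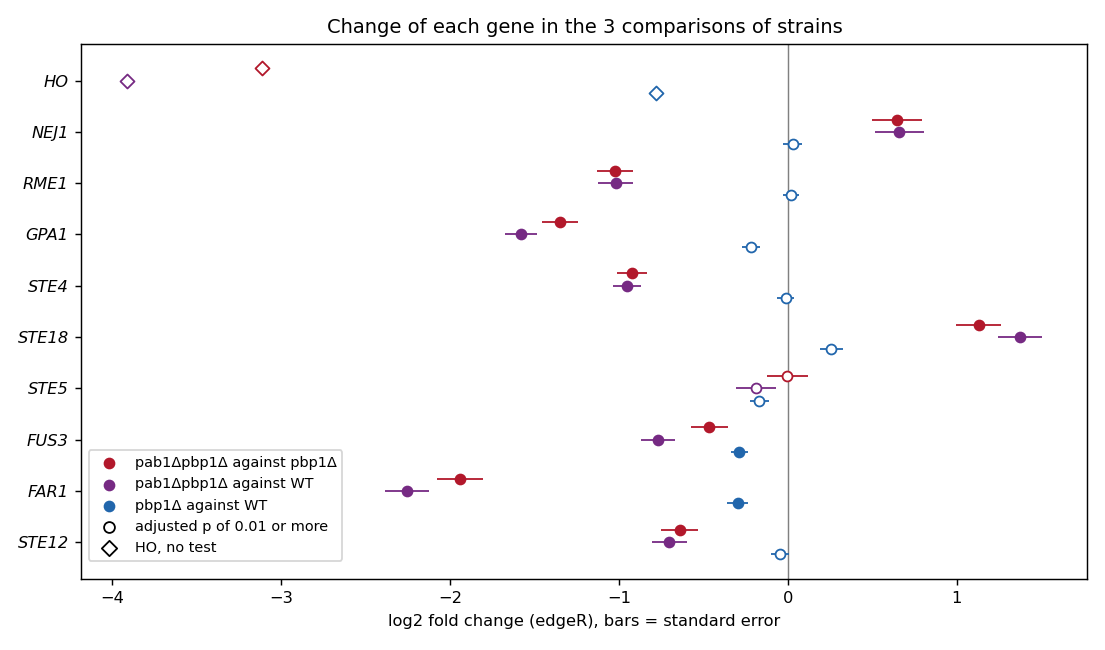
log2 fold change of each gene in the 3 comparisons of strains from edgeR, with its standard error; filled points passed an adjusted p of 0.01, open points did not, and the diamonds of *HO* carry no test. *FAR1* is nearest to *HO* in *pab1Δpbp1Δ* against *pbp1Δ* at -1.94, and *STE18* and *NEJ1* lie to the right of 0.

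Deletion of *PBP1* alone changed 2 of the 9 genes. In *pbp1Δ* against WT, *FUS3* (log2 fold change -0.29 ± 0.05, adjusted p = 0.00357) and *FAR1* (-0.30 ± 0.06, adjusted p = 0.00895) fell and no other member passed the test. Over all 6425 entries 6.24% were called lower and 5.34% higher. The libraries of these 2 strains did not overlap for 5 of the 9 genes, beside 42% of all entries; they were *FUS3*, *FAR1*, *GPA1* (-0.22, adjusted p = 0.0161), *STE5* (-0.17, adjusted p = 0.0461) and *STE18* (0.26, adjusted p = 0.0218). *NEJ1*, *RME1*, *STE4* and *STE12* lay between -0.05 and 0.03. If the WT libraries are technical replicates, p-values against WT hold technical spread alone for that strain. Both falls were lost without WT replicate 2, without WT replicate 3 or without *pbp1Δ* replicate 3 (0 genes called each time), and with all 9 libraries in the fit.

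In *pab1Δpbp1Δ* against WT, 6 of the 9 genes were called lower and 2 higher, beside 21.6% and 21.8% of all 6558 entries. The libraries did not overlap for 8 of the 9 genes, beside 69.7% of entries. *FAR1* had the lowest log2 fold change of the 9 (-2.26 ± 0.13), then *GPA1* (-1.58 ± 0.10), *RME1* (-1.02 ± 0.10), *STE4* (-0.95 ± 0.08), *FUS3* (-0.77 ± 0.10) and *STE12* (-0.70 ± 0.10). *STE18* rose by 1.37 ± 0.13 and *NEJ1* by 0.66 ± 0.15 on the same scale, with adjusted p-values of 0.000189 for *STE18* and 0.00601 for *NEJ1* (edgeR). This comparison uses the same *pab1Δpbp1Δ* libraries as the one with *pbp1Δ*, so the calls are not independent of those above.

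To set the genes against each other, the deposited FPKM, which divides by transcript length, was used within each strain. In *pab1Δpbp1Δ* cells *STE18* (103 ± 15 FPKM, SD, n = 3) and *STE4* (86.7 ± 7.7) were highest and overlapped, followed by *FUS3* (63.2), *STE12* (61.9) and *RME1* (59.7), which overlapped, then *STE5* (43.1), *NEJ1* (36.0) and *GPA1* (30.5), each overlapping the next. *FAR1* (19.4) and *HO* (3.80) stood apart at the bottom. In *pbp1Δ* cells *STE4* was highest at 129 FPKM, *HO* was ninth at 25.7 and *NEJ1* was lowest at 18.1, with overlap only between *GPA1* (61.1) and *FAR1* (58.4) and between *STE18* (37.1) and *STE5* (33.9). WT cells had *STE4* at 125 FPKM at the top and *NEJ1* at 17.0 at the bottom, *HO* was the seventh at 42.4, and only *FAR1* (69.1) and *GPA1* (68.4) overlapped. FPKM carries no TMM factor, and those factors were 1.12 to 1.25 in *pab1Δpbp1Δ*, 0.91 to 0.95 in *pbp1Δ* and 0.89 to 0.91 in WT, so FPKM is not compared between strains here.

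Profiles over the 9 libraries were then compared with that of *HO* by the Euclidean distance of log2(CPM + 0.5) after centering each of 6230 mRNA entries. The 5 nearest were *BSC1* (distance 1.32), *RPS22B* (1.78), *RPL18B* (1.87), *RPS9A* (1.88) and *HAC1* (2.00), and 4 of them stayed among the 5 nearest with a pseudocount of 1. Of these *RPS22B*, *RPL18B* and *RPS9A* encode ribosomal proteins and *HAC1* the transcription factor of the unfolded protein response. Their log2 fold changes in *pab1Δpbp1Δ* against *pbp1Δ* were -2.33, -4.22, -2.87, -2.31 and -5.26, in that order. *HAC1* rested on few reads (mean 0.0339 CPM in *pab1Δpbp1Δ*, against 1.35 CPM in *pbp1Δ*), and each of the 3 ribosomal protein genes has a near-identical copy with which reads can be shared. Unspliced transcripts are separate entries and were not compared here. For a gene with an intron, these values cover its spliced mRNA alone. *FAR1* was the sixth (2.07), *GPA1* ranked 50 and *RME1* 280, whereas *STE18* ranked 5845. The 9 members ranked in the order of their fold changes in *pab1Δpbp1Δ* against *pbp1Δ*, so these ranks are no separate evidence of a shared profile.

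Genes next to the members were read for shared changes, since the transcript models include annotated UTRs and the strand setting of the count is not given in the sources used here. *SSB1*, which ends 364 bases from the 3′ end of *HO* on the opposite strand, was at -0.47 on the log2 scale in *pab1Δpbp1Δ* against *pbp1Δ* (adjusted p = 0.0478). On its 5′ side *GCS1*, 3083 bases away, had -0.53 (adjusted p = 0.0147). No gene of the RefSeq annotation overlapped a member. The study's transcripts follow the Saccharomyces Genome Database, whose further entries were not searched for overlap. Nearest neighbors past the threshold were *NQM1* beside *RME1* (2.46), *MGM1* beside *STE4* (-0.57), *ACH1* beside *FUS3* (-0.60) and *IPI1* beside *STE12* (-0.50). Convergent genes closest to their member were *SPO71*, 69 bases from *STE5* (0.19, adjusted p = 0.121), and *EMC2*, 94 bases from *STE18* (-0.26, adjusted p = 0.225).

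The genes around the members were taken from lists and compared in *pab1Δpbp1Δ* against *pbp1Δ*, where 18% of all entries were called higher and 16.7% lower. Calls over all entries rose to 2038 higher and 1879 lower of 6631 without *pab1Δpbp1Δ* replicate 1. They dropped to 436 to 511 higher and 424 to 534 lower without a *pbp1Δ* library, so list counts are read beside these. Of 14 other genes of the pheromone cascade, 1 rose and 2 fell, with a median log2 fold change of 0.08. *PTP2*, a phosphatase of MAP kinases, rose (2.11 ± 0.25, adjusted p = 0.000473), at 213, 450 and 344 CPM in *pab1Δpbp1Δ*, against 78.1, 72.5 and 82.0 CPM in *pbp1Δ*. *BEM1*, a scaffold of cell polarity, fell (-0.56 ± 0.10) and so did *DIG1*, an inhibitor of Ste12 (-0.45 ± 0.09). *SST2*, which turns Gpa1 off, lay just outside the threshold (-1.09 ± 0.27, adjusted p = 0.0101), and the kinase genes *STE7* (0.03), *STE11* (0.32) and *KSS1* (0.15) did not pass it. With upper-quartile scaling the split turned to 2 higher and 0 lower, and by total counts alone to 5 higher and 0 lower, so the falls of *BEM1* and *DIG1* depend on the scaling. Calls numbered 7 when *pab1Δpbp1Δ* replicate 1 was left out, and 1 when a *pbp1Δ* library was.

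Of 14 genes that Ste12 induces on pheromone, 4 rose, none fell and 10 did not pass the test, beside 18% higher and 16.7% lower over all entries. The median of 0.79 lay between *PRM3* (0.73) and *PRM1* (0.84), and neither passed the test. *PRM3* (mean 0.443 CPM in *pab1Δpbp1Δ*, against 0.265 CPM in *pbp1Δ*) and *PRM6* (0.285 against 0.0936 CPM) rested on few reads. *FIG1* (1.39), *PRM2* (1.36), *FIG2* (0.99) and *PRM5* (0.96) rose, and *FIG1* rested on few reads (0.591, 0.841 and 0.637 CPM in *pab1Δpbp1Δ*, against 0.294, 0.264 and 0.224 CPM in *pbp1Δ*). *FUS1*, which acts in cell fusion, had -0.22 (adjusted p = 0.535). The list had 0 calls without any 1 of the *pbp1Δ* libraries, 1 without replicate 2 or replicate 3 of *pab1Δpbp1Δ* and 9 without its replicate 1. Calls over all entries also dropped without a *pbp1Δ* library and rose without *pab1Δpbp1Δ* replicate 1. The 2 other haploid-specific genes examined were *AXL1* (0.67, adjusted p = 0.0299) and *RDH54* (-0.14, adjusted p = 0.341). Of these 2, edgeR called 0 (1 at an unadjusted p under 0.05, 1 by DESeq2), and 1 without *pab1Δpbp1Δ* replicate 1.

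Of 18 regulators of *HO*, 3 fell and 0 rose, a share of falls near the 16.7% of all entries, with a median of -0.25. *ASH1*, a repressor of *HO* in daughter cells, fell (-0.84 ± 0.11, adjusted p = 0.000622), as did *NHP6A*, an HMG protein of chromatin (-0.71 ± 0.12), and *SWI6*, the SBF subunit (-0.42 ± 0.09). *SWI4*, the other SBF subunit, had 0.60 (adjusted p = 0.0187) and *SWI5* -0.32 (adjusted p = 0.0163). With upper-quartile scaling 2 of the list were called higher and 2 lower, and by total counts alone 2 and 1. DESeq2 on these strains called 2 higher and 5 lower, while edgeR called 12 once *pab1Δpbp1Δ* replicate 1 was left out and 1 once *pbp1Δ* replicate 1 was. Over all entries those 2 edgeR fits called 2038 higher and 1879 lower of 6631, and 446 higher and 534 lower of 6636.

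Of 10 other targets of SBF or Swi5, 4 fell and 1 rose, beside 16.7% lower and 18% higher over all entries, with a median of -0.46. *PIR1*, a cell wall protein gene, had 276, 233 and 281 CPM in *pab1Δpbp1Δ*, against 1002, 1112 and 1028 CPM in *pbp1Δ* (-1.99 ± 0.13, adjusted p = 6.96e-05). *CTS1*, the chitinase gene (-1.69), *EGT2*, which acts in cell separation (-1.43), and the cyclin gene *PCL2* (-0.62) fell too, while the cyclin gene *PCL1* rose (0.57). *CLN2*, a G1 cyclin gene of SBF, had -0.40 (adjusted p = 0.0283). Leaving out any 1 of the *pbp1Δ* libraries gave 3 calls.

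Among 7 genes for Puf proteins and deadenylation, 2 fell and 0 rose, beside 16.7% lower and 18% higher over all entries, with a median of -0.48. They were *POP2*, a deadenylase subunit (-0.96 ± 0.12, adjusted p = 0.000531), and *EAP1*, a partner of the cap-binding protein (-0.53 ± 0.12). *MPT5* (0.07) and *PUF4* (-0.41, adjusted p = 0.0237), the Puf genes, did not pass the test. Upper-quartile scaling left 1 fall, and total counts alone gave 1 fall and 1 rise. Leaving out *pab1Δpbp1Δ* replicate 1 gave 4 calls, and leaving out its replicate 2 or a *pbp1Δ* library gave 1. Of 8 partners of Nej1 in end joining, edgeR called 0 (2 at an unadjusted p under 0.05, 2 by DESeq2) and 3 without *pab1Δpbp1Δ* replicate 1, with a median of 0.21. The ligase gene *DNL4* (0.73, adjusted p = 0.0123) and *LIF1* (0.77, adjusted p = 0.0170), whose protein binds Nej1, had the highest values.

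**Figure D4:**
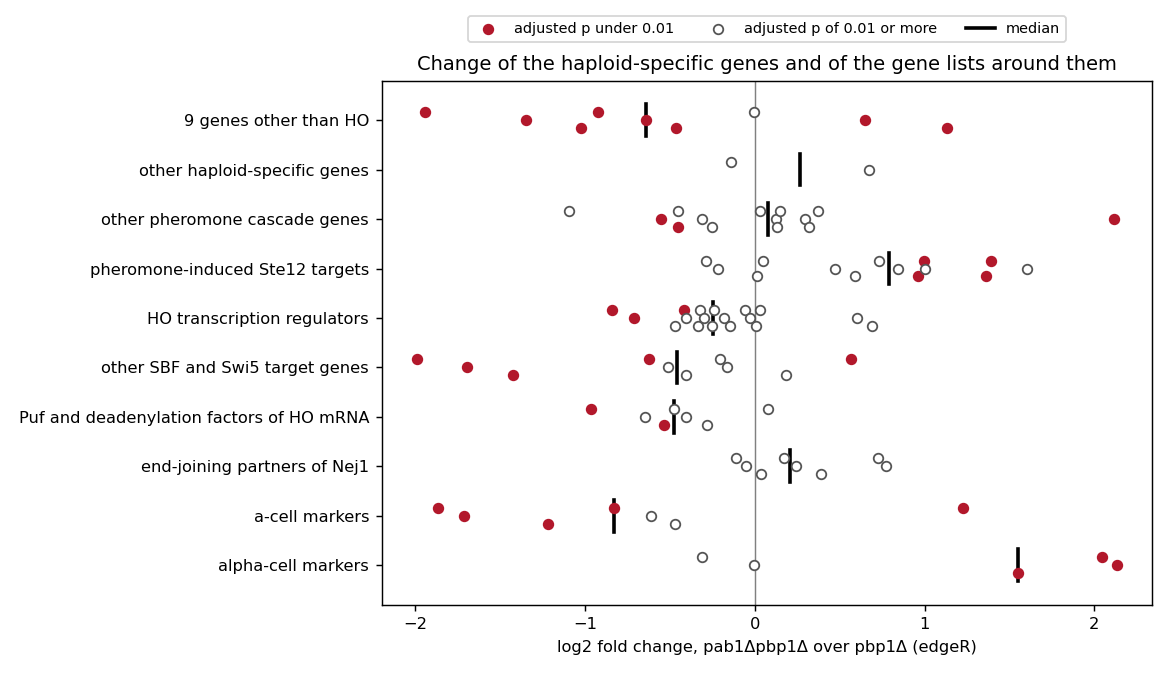
log2 fold change in *pab1Δpbp1Δ* against *pbp1Δ* of the 9 genes other than *HO* and of the lists around them; filled points passed an adjusted p of 0.01, open points did not, and bars mark medians. The 9 genes have a median of -0.64, Ste12 targets one of 0.79 and α-cell markers one of 1.55.

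Cell type markers were read beside these results. Over all entries of *pab1Δpbp1Δ* against *pbp1Δ*, 16.7% were called lower and 18% higher. Of 7 a-cell markers, 4 fell in that comparison (*BAR1* -1.87, *MFA1* -1.71, *STE6* -1.22 and *MFA2* -0.83) and *HMRA1* rose (1.23). *STE2* (-0.61, adjusted p = 0.0273) and *AGA2* (-0.47, adjusted p = 0.0443) did not pass edgeR's test. The summed level of the 7 was 808 to 1199.6 CPM in *pab1Δpbp1Δ*, 1876 to 1981 CPM in *pbp1Δ* and 1864 to 1909 CPM in WT. Of 8 α-cell markers, 5 passed the filter and 3 of them rose (*STE3* 2.14, *MF(ALPHA)1* 2.05 and *SAG1* 1.55). *MF(ALPHA)2* (-0.31) and *MATALPHA2* (-0.01) were not called. Sums over the 8 were 125 to 251, 77.1 to 83.3 and 70.8 to 75.6 CPM in the same order of strains. *MATALPHA1*, the gene for α1, which defines the α cell, had at most 0.31 expected counts in a *pab1Δpbp1Δ* library, 0 in *pbp1Δ* and at most 2.41 in WT, and *HMLALPHA1* had the same values. *MATALPHA2* stood at 15.9 to 19.3 CPM in *pab1Δpbp1Δ*, against 16.3 to 19.2 CPM in *pbp1Δ*, and *MATa* cells have a locus whose sequence matches part of it. The genome used carries *MATα*, so that reads of *MATa1* and *HMRA1* cannot be told apart. The part of these markers and of the slower growth in the results was not tested.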

How the data were processed

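Per the labels and methods, total RNA was made into libraries with a stranded mRNA kit, with rRNA depletion at the fragmentation step (single-end reads). The methods name no poly(A) selection. Reads were quantified with RSEM 1.3.0 over Bowtie 1.0.0 on a transcriptome of the R64 genome. The authors deposited expected counts, not normalized, and FPKM, scaled to transcript length and library. Counts were rounded and analyzed in R 4.3.3 with edgeR 4.0.16 (quasi-likelihood, robust, TMM, filterByExpr minimum count 10) on the 6 libraries of each pair of strains, with Benjamini-Hochberg adjustment over all entries tested. Sequences and neighbors came from RefSeq R64 (Python 3.11.15). DESeq2 1.42.0, other scalings and filters, the table per locus, a replicate block and leaving out libraries were alternatives. Scaling by total counts alone was added after seeing the data.

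Members, lists and tests were chosen with earlier results of these data known. The named genes were all members, up to 6 called and 4 other genes of each list, the 5 entries nearest to *HO* and neighbors of the members. *YLR264C-A*, a neighbor of *NEJ1*, did not pass the filter. The procedure was tested on simulated counts that gave both strains the spread of the *pbp1Δ* replicates. That test does not show the share of false calls under the wider spread of *pab1Δpbp1Δ*. Replicates differed by more than sampling noise. In *pab1Δpbp1Δ* against WT same-numbered libraries deviated together (r 0.15, 0.20 and 0.18), and the block there left 8 calls. In the other pairs r was -0.07 to 0.39 and the numbers were not taken as pairs.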

Additional observations from a re-analysis of the deposited data

How the results depend on the processing

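In *pab1Δpbp1Δ* against *pbp1Δ*, *RME1*, *GPA1*, *STE4*, *STE18* and *FAR1* kept their call under all 17 alternatives, *HO* stayed between -3.37 and -2.76, and *NEJ1*, *FUS3* and *STE12* lost theirs in 6, 7 and 5. An adjusted p under 0.05 is 1 of the 17 and uses the main fit, so no call could be lost there. Leaving out a library gave 5 to 8 calls among the 9 genes, 0 to 2 in *pbp1Δ* against WT and 7 to 8 in *pab1Δpbp1Δ* against WT, from fits with fewer libraries. For the lists it gave 1 to 7 (cascade), 0 to 9 (Ste12 targets), 1 to 12 (*HO* regulators), 3 to 6 (SBF and Swi5 targets), 1 to 4 (Puf and deadenylation), 0 to 3 (end joining) and 0 to 1 (other haploid-specific genes). Over all entries of *pab1Δpbp1Δ* against *pbp1Δ*, leaving out a library gave 436 to 2038 calls higher and 424 to 1879 lower. In *pbp1Δ* against WT, upper-quartile scaling and total counts alone left 1 call, DESeq2 or edgeR on all 9 libraries 0, an adjusted p under 0.05 5 and the replicate block 4. The block left 6 calls in *pab1Δpbp1Δ* against *pbp1Δ*, 2 Ste12 targets and 1 end-joining gene; there 2 of 3 libraries correlated best with their own number, so the numbers are not taken as pairs.

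Calls in the cascade were 5 with DESeq2 on 2 strains, 5 with all 9 libraries in edgeR, 5 by total counts alone, and 6 with DESeq2 on all 9 or an adjusted p under 0.05. Ste12 targets had 7 calls with DESeq2 on all 9 libraries and 8 with an adjusted p under 0.05. *HO* regulators had 7 under either DESeq2 fit, all 9 libraries in edgeR or the looser threshold. Puf and deadenylation genes had 5 with DESeq2 on 2 strains, all 9 libraries in edgeR or the looser threshold, 6 with DESeq2 on all 9 and 1 with upper-quartile scaling. End-joining genes had 2 under upper-quartile scaling, either DESeq2 fit, all 9 libraries or the looser threshold, and 3 by total counts alone. The other haploid-specific genes had 1 under either DESeq2 fit, the looser threshold or total counts alone.

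The sign of genes near 0 turned. *STE5* in *pab1Δpbp1Δ* against *pbp1Δ* was 0.18 with upper-quartile scaling, 0.017 with at least 10 counts in every library and 0.35 by total counts, and -0.084 to 0.10 when a library was left out. *STE5* in *pab1Δpbp1Δ* against WT was 0.055 with upper-quartile scaling and 0.23 by total counts. In *pbp1Δ* against WT, *STE4* was 0.026 with upper-quartile scaling and 0.043 by total counts, and *STE12* was 0.011 by total counts. Leaving out a library there gave -0.058 to 0.017 for *STE4*, -0.029 to 0.046 for *RME1* and -0.015 to 0.057 for *NEJ1*.

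Scaling set where 0 lies. In *pab1Δpbp1Δ* against *pbp1Δ* the median of all entries was 0.03 with TMM, 0.21 with upper-quartile scaling and 0.37 by total counts, and calls split 1185 higher and 1100 lower, 1682 and 663, and 2206 and 409. In *pbp1Δ* against WT the split was 343 and 401, 411 and 270, and 506 and 246, and in *pab1Δpbp1Δ* against WT 1428 and 1417, 2086 and 837, and 2673 and 543, with medians of 0.03, 0.28 and 0.45 in the last comparison. The 9 genes then had 4 falls and 2 rises under upper-quartile scaling and by total counts. No spike-in was used here, so a change in total mRNA per cell cannot be told apart from changes relative to the pool. The causes of these differences were not tested.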

Other observations

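Of the 9 genes with an a1-α2 operator match within 500 bases of the start codon, 6 are not members. In *pab1Δpbp1Δ* against *pbp1Δ*, *LEE1* (log2 fold change 2.01) and *LGE1* (0.49), which are divergent and share 1 match, were called higher, and *HAS1* (-0.93), an RNA helicase gene, and *URK1* (-0.57), the uridine kinase gene, were called lower. *SEC10* (-0.27) and *COS10* (-0.07) did not pass the test. Without *HO*, the 8 remaining genes split into 3 higher, 3 lower and 2 not called. Of 58 tested genes other than *HO* with the shorter form, 13 were called higher, 13 lower and 32 neither, beside 18% higher and 16.7% lower over all entries.

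Among the a- and α-cell markers, *STE3*, the receptor gene of α cells, had a low level that differed in every comparison: 13.0, 14.6 and 15.1 CPM in *pab1Δpbp1Δ*, against 3.32, 3.31 and 3.08 CPM in *pbp1Δ*, and 1.82, 1.23 and 1.38 CPM in WT. It rose in *pbp1Δ* against WT (log2 fold change 1.14 ± 0.15, adjusted p = 0.00100), where no a-cell marker was called.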
